A study of Mus musculus with 12 samples.

Results

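The comparison set leukemic long-term hematopoietic stem cells (LTHSC) of Tek_Cre mice against those of No_Cre mice. It took the 4 libraries that the labels call Tek-Cre and the 4 that they call No Cre, 8 of the 12 libraries of the series, and every gene that passed a count filter. Both groups were C57BL/6 mice whose tumor stage is given as CML (chronic myeloid leukemia), and the cells were sorted from bone marrow by flow cytometry on conventional surface markers, straight into lysis buffer. No_Cre mice carried no Cre. Tek_Cre mice carried Cre under the control of Tek, which encodes the angiopoietin receptor TIE2. The labels name the Cre line alone: the leukemia model, the Cxcl12 alleles of either group, the age of the mice and whether the replicates of a group came from separate mice are not given in the sources used here, and the mice are called recipient mice in one field and primary mice in another. The design text calls the 4 libraries of a group biological replicates. The p-values below measure only the spread between these libraries, which may be technical.

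LTHSC stand at the top of blood formation and divide rarely. They are held in the marrow by niche cells, among which mesenchymal stromal cells and endothelial cells release the chemokine CXCL12, and CXCL12 acts on blood cells through its receptor CXCR4. In chronic myeloid leukemia the fusion kinase BCR-ABL1 drives the output of mature myeloid cells, and stem cells that divide rarely survive kinase inhibitors. Tek is active in endothelial cells and also in blood-forming cells, so that a Tek-driven Cre can act in both. The series title names Cxcl12 of the mesenchymal niche, and the Tek_Cre group is the endothelial and blood counterpart of the mesenchymal Cre line of the series, which was not compared here.

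The No_Cre libraries held 19988050 to 24007569 counts and the Tek_Cre libraries 15715603 to 28860324. No pair of libraries was a duplicate: within groups, chi-square per degree of freedom was 1.86 to 7.203. Pearson's r of log2 values over genes, given as a description since genes are not replicates, was 0.996 to 0.997 within groups and 0.944 to 0.946 between them. Replicates varied by 3.45% in No_Cre and 5.26% in Tek_Cre (edgeR's common coefficient of variation beyond counting error). Immunoglobulin genes, which encode antibodies, took 7.41, 7.71, 7.37 and 7.31% of counts in the No_Cre libraries and 25.2, 25.6, 25.9 and 26.0% in the Tek_Cre libraries. The means, 7.45 ± 0.175% and 25.7 ± 0.356% (SD, n = 4), were 18.2 percentage points apart and the groups did not overlap (two-sided exact permutation test, p = 0.0286, the smallest that 4 against 4 libraries allow, adjusted p = 0.0429 over 3 library measures). At a depth thinned to 11693604 counts outside immunoglobulin genes, 19446 ± 52.4 genes had at least 1 count in No_Cre and 18625 ± 80.2 in Tek_Cre (mean ± SD, n = 4, exact permutation test, p = 0.0286, adjusted p = 0.0429). With at least 5 counts in place of 1, the difference of means was -38.25 genes and did not pass (exact p = 0.114). Mitochondrially encoded genes took 0.123 ± 0.0107% of counts outside immunoglobulin genes in No_Cre and 0.133 ± 0.0122% in Tek_Cre, which did not pass (exact permutation test, p = 0.286). This share rests on part of the mitochondrial genes, since 5 of the 13 protein-coding ones (mt-Nd4l, mt-Co2, mt-Co3, mt-Atp6 and mt-Atp8) are listed at 0 in all 8 libraries although every cell uses them. With immunoglobulin genes kept in the total the sign of this difference turned, at -0.0144 percentage points (exact p = 0.0857).

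Levels below are CPM, counts scaled to a common library total after adjusting that total with TMM factors (trimmed mean of M-values). Groups were compared by the quasi-likelihood test of edgeR, in 1 fit of all 12 libraries, and a gene is said to have risen or fallen in Tek_Cre where its p-value, adjusted by Benjamini-Hochberg over all genes tested, was under 0.05. A change is given as the log2 fold change of Tek_Cre over No_Cre ± its SE with the adjusted p, and a level as CPM of replicates 1 to 4 or as mean ± SD (n = 4). Of 14756 genes tested, 3896 (26.4%) rose and 3911 (26.5%) fell, together 7807 (52.9%). Counts of called members in every list below are to be read beside these shares. The median size of a called change was 0.418 on the log2 scale, and 1017 rises and 813 falls were larger than 2-fold. In 7189 genes (48.7%) the 4 Tek_Cre libraries did not overlap the 4 No_Cre libraries, 3579 (24.3%) with Tek_Cre higher and 3610 (24.5%) with Tek_Cre lower. With so many genes called, small changes pass: against a change of 1.5-fold (glmTreat of edgeR), 1045 genes (7.08%) rose and 790 (5.35%) fell.

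Removing the 429 immunoglobulin genes from the library totals, the scaling and the fit left 3731 rises (25.3%) and 3983 falls (27.1%) among 14724 genes. Of the 14593 genes tested both ways, 7655 were called with immunoglobulin genes in the totals, 7551 of them in the same direction without, and none in the opposite direction. The choice of scale moved more calls. With library totals alone, immunoglobulin genes included and no TMM factors, the median of all genes moved to -0.35 on the log2 scale, and 1516 genes rose and 9674 fell, so that 13.5% of the calls were rises against 49.9% with TMM factors. With library totals alone and immunoglobulin genes removed, the median was -0.03, with 3447 rises and 4373 falls. Sdc1, the plasma cell surface proteoglycan CD138, shows the range: it went from 28.3 to 117 CPM of all counts and from 30.6 to 158 CPM of counts outside immunoglobulin genes. Mki67, the proliferation antigen Ki-67, went from 113 to 56.2 on the first of these scales and from 122 to 75.6 on the other. On library totals alone every list median below also moves by about that shift, so that those between 0 and 0.35 on the TMM scale, such as the medians of the LTHSC, p53, interferon, TGF-beta and unfolded protein response lists, turn negative. All changes below are given relative to the shift of all genes, on the TMM scale, where the median of all genes was 0.000328.

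**Figure D1:**
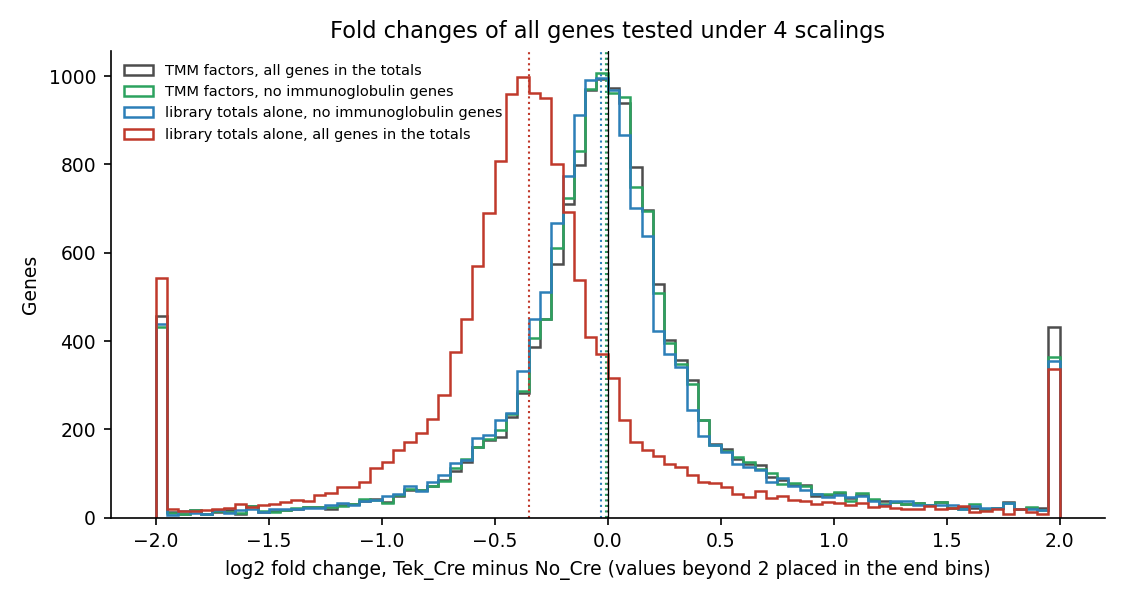
Distribution of log2 fold changes (Tek_Cre minus No_Cre, horizontal axis) over all genes tested (number of genes, vertical axis) under 4 scalings, with dotted lines at the medians. The 3 scalings that remove or offset the immunoglobulin counts lie on top of each other with medians between -0.03 and 0.000328, and library totals alone shift the whole distribution to -0.35.

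**Figure D2:**
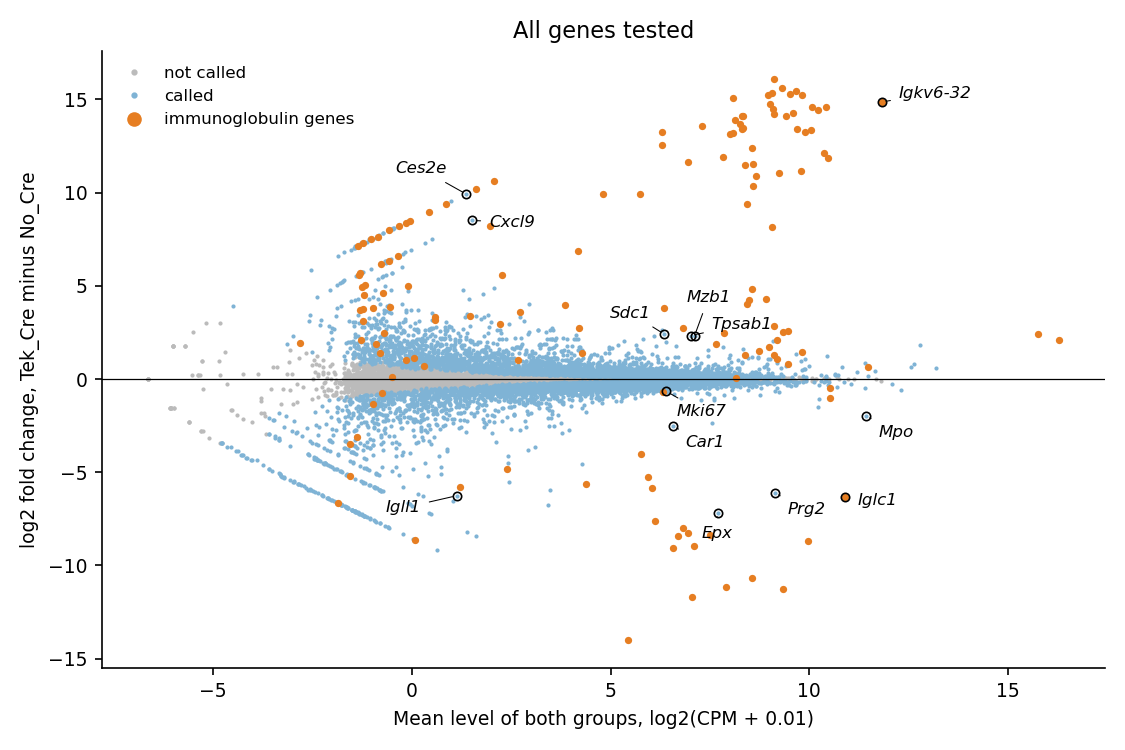
Log2 fold change (Tek_Cre minus No_Cre, vertical axis) against the mean level of both groups (log2 of CPM plus 0.01, horizontal axis) for the 14756 genes tested. Gray points did not pass, blue points were called, orange points are the 147 immunoglobulin genes tested, and circled genes are named in the text.

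Of the CXCL12 axis, only the receptor was well measured. Cxcl12 itself had 36 counts over the 4 No_Cre libraries and 28 counts over the 4 Tek_Cre libraries, at 0.657, 0.269, 0.353 and 0.184 CPM in No_Cre and 0.175, 0.665, 0.429 and 0.289 CPM in Tek_Cre. These levels are near the detection limit in both groups, overlap, and did not pass the count filter of the fit with immunoglobulin genes, so they check neither the labels nor the recombination of the gene in niche cells, which were not sequenced. In the fit without immunoglobulin genes Cxcl12 was tested and did not pass (log2 fold change -0.06, adjusted p = 0.922). Cxcr4, the CXCL12 receptor, stood at 21.6, 23.2, 22.7 and 23.1 CPM in No_Cre and 21.97, 20.1, 21.2 and 21.6 CPM in Tek_Cre. The groups overlapped, and the change of -0.09 ± 0.06, adjusted p = 0.226 did not pass. Ackr3, the atypical CXCL12 receptor, had 1 count over the 4 No_Cre libraries and 0 counts over the 4 Tek_Cre libraries and was not tested. Tek, the gene whose control elements drive the Cre, stood at 63.9, 75.2, 72.5 and 66.8 CPM in No_Cre and 60.2, 63.6, 69.5 and 59.5 CPM in Tek_Cre. Its ranges overlapped, and a fall of small size was called at -0.14 ± 0.06, adjusted p = 0.0429, and it did not pass without No_Cre replicate 2 (adjusted p = 0.171), No_Cre replicate 3 (0.0988), Tek_Cre replicate 1 (0.110), 2 (0.0564) or 4 (0.114). Bcr fell from 20.01, 20.8, 22.1 and 25.1 CPM to 11.8, 12.6, 12.4 and 13.6 CPM, with every Tek_Cre library below every No_Cre library (-0.80 ± 0.09, adjusted p = 1.22e-07). Abl1, the kinase gene of the fusion, went from 106 ± 3.404 CPM to 104 ± 4.52 CPM (-0.02 ± 0.06, adjusted p = 0.753, not called). Whether reads of a BCR-ABL1 fusion would be counted at Bcr or Abl1 is not given in the sources used here. Ezh2, the catalytic subunit of polycomb repressive complex 2 (PRC2), went from 57.2 ± 2.09 CPM to 53.3 ± 2.79 CPM and did not pass (-0.11 ± 0.06, adjusted p = 0.149).

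The sort label was checked on markers of LTHSC and of other marrow cells. Genes of 3 surface markers of LTHSC, Kit, Slamf1 and Ly6a, were present in all 8 libraries. Cd34 and Cd48, markers of progenitors beyond LTHSC, were present too, at levels given below. Kit, the stem cell factor receptor, stood at 835, 861, 863 and 866 CPM in No_Cre and 992, 988, 973 and 953 CPM in Tek_Cre. Slamf1 (CD150) stood at 51.9, 52.3, 50.7 and 50.7 CPM in No_Cre and 58.1, 64.6, 63.2 and 60.5 CPM in Tek_Cre, and Ly6a (Sca-1) at 205, 232, 218 and 207 CPM in No_Cre and 302, 310.3, 304 and 295 CPM in Tek_Cre. Tek_Cre was above No_Cre in every library for all 3, by 0.19, 0.26 and 0.49 on the log2 scale with TMM factors (adjusted p = 6.38e-05, 1.41e-04 and 3.79e-09). With library totals alone Kit fell (-0.16, adjusted p = 0.000165) and Slamf1 was lower without passing (-0.09, adjusted p = 0.112). The libraries also carried RNA of mature lineages. Summed over 18 late neutrophil genes, levels were 25421 to 26025 CPM in No_Cre and 40596 to 41319 CPM in Tek_Cre. Over 30 plasma cell genes they were 7264 to 7366 CPM in No_Cre and 17421 to 18448 CPM in Tek_Cre, over 20 mast cell and basophil genes 3882 to 3898 CPM in No_Cre and 6757 to 6878 CPM in Tek_Cre, and over the LTHSC genes 8926 to 9187 CPM in No_Cre and 8955 to 9636 CPM in Tek_Cre. Most of the plasma cell sum in Tek_Cre, and most of its rise, was Slpi, which neutrophils and epithelia also make. Its means were 3166 CPM in No_Cre and 11098 CPM in Tek_Cre. The eosinophil granule gene Prg2, which fell, is also part of the plasma cell sum. Some markers of other cell types were at or near 0: Cd3e of T cells had 0 counts in 7 of the 8 libraries and 1 in the other, Cdh5 of endothelial cells had counts in 2 libraries and at most 3, and Lepr of marrow stroma had at most 1 count in any library. Other members of the T and NK, endothelial and stromal lists were present, such as Thy1, Emcn and Vcam1, and summed levels are given below. These markers alone thus do not show that those cells were absent. In bulk RNA, fewer cells of a type and less RNA per cell cannot be told apart. How far cells outside the LTHSC gate account for any change below was not tested, and the summed levels of their markers are given beside the results.

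Most antibody genes rose. Of 147 immunoglobulin genes tested, 115 rose, 29 fell and 3 did not pass, against 26.4% rising and 26.5% falling among all genes. Ighg1, the constant gene of IgG1 heavy chains, stood at 30405, 31867, 29569 and 29930.2 CPM in No_Cre and 123513, 127391, 132762 and 137203 CPM in Tek_Cre. Igkc, the constant gene of kappa light chains, stood at 17735, 17824, 17319 and 17349.7 CPM in No_Cre and 90779.96, 91881, 94133 and 96976 CPM in Tek_Cre. Both rose in every library, by 2.10 ± 0.04 and 2.41 ± 0.04 on the log2 scale (adjusted p = 2.99e-22 and 3.68e-25). Ighg1 made up 98.4% of heavy chain constant counts in the No_Cre libraries and 98.4 to 98.5% in the Tek_Cre libraries. The minor classes differed. Ighg2c (IgG2c) stood at 0.966, 0.806, 0.751 and 0.507 CPM in No_Cre and 1666, 1739.8, 1789 and 1870.3 CPM in Tek_Cre, below 1 CPM in every No_Cre library and far above it in every Tek_Cre library. Igha (IgA) went the other way, from 367, 364, 359 and 361 CPM to 1.23, 0.961, 1.34 and 0.908 CPM (-8.35 ± 0.08, adjusted p = 1.36e-29). Ighe (IgE) rose from 29.1 ± 2.17 CPM to 198 ± 5.004 CPM, and Ighm (IgM) fell from 98.6 ± 3.72 CPM to 62.02 ± 3.14 CPM.

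The light chains changed kind as well. Iglc1, a constant gene of lambda light chains, stood at 3802, 3998, 3721 and 3696 CPM in No_Cre and 45.6, 45.4, 49.7 and 47.5 CPM in Tek_Cre, and every Tek_Cre library lay far below every No_Cre library (-6.34 ± 0.05, adjusted p = 1.89e-31). Iglc3, another lambda constant gene, moved the other way (10.8 ± 0.509 CPM to 153 ± 3.71 CPM, 3.82 ± 0.06, adjusted p = 2.14e-25). Lambda constant genes together took 17.6 to 18.4% of light chain constant counts in No_Cre and 0.218 to 0.227% in Tek_Cre. The variable (V) genes, which are joined anew in each B cell, differed between groups and hardly within them. Unrelated B cells can use the same V gene, so these counts do not identify clones. Igkv6-32 stood at 0.2704, 0.115, 0.265 and 0.323 CPM in No_Cre and 7112, 7347, 7414 and 7342 CPM in Tek_Cre. Igkv12-46 stood at 0.773, 0.768, 0.883 and 0.599 CPM in No_Cre and 2961, 2931, 2777 and 2731 CPM in Tek_Cre. Igkv19-93 stood at 1899, 2076, 2025 and 2003 CPM in No_Cre and 5.16, 4.95, 4.82 and 4.33 CPM in Tek_Cre. For each of these 3, 4 libraries of a group shared a level that the other 4 were orders of magnitude away from. Igkv10-96 was high in both groups (2229 ± 117 CPM to 3449 ± 209 CPM). The lambda V gene Iglv1 stood at 1966 ± 96.7 CPM to 969 ± 35.7 CPM, a fall of 2.03-fold against 80.9-fold for Iglc1. There were 13 kappa V genes with at least 1% of all kappa V counts in all 4 No_Cre libraries and 27 in all 4 Tek_Cre libraries, and 6 and 20 of them were below 0.1% in the other group. Of heavy chain V genes, 11 and 25 reached 1%, and 8 and 20 of these were below 0.1% in the other group. Counts of V genes and of the lambda constant genes depend on how reads shared between near-identical copies were assigned, which is not given in the sources used here. The 4 libraries of a group thus carried the same abundant V genes, and whether they came from separate mice is not given in the sources used here.

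**Figure D3:**
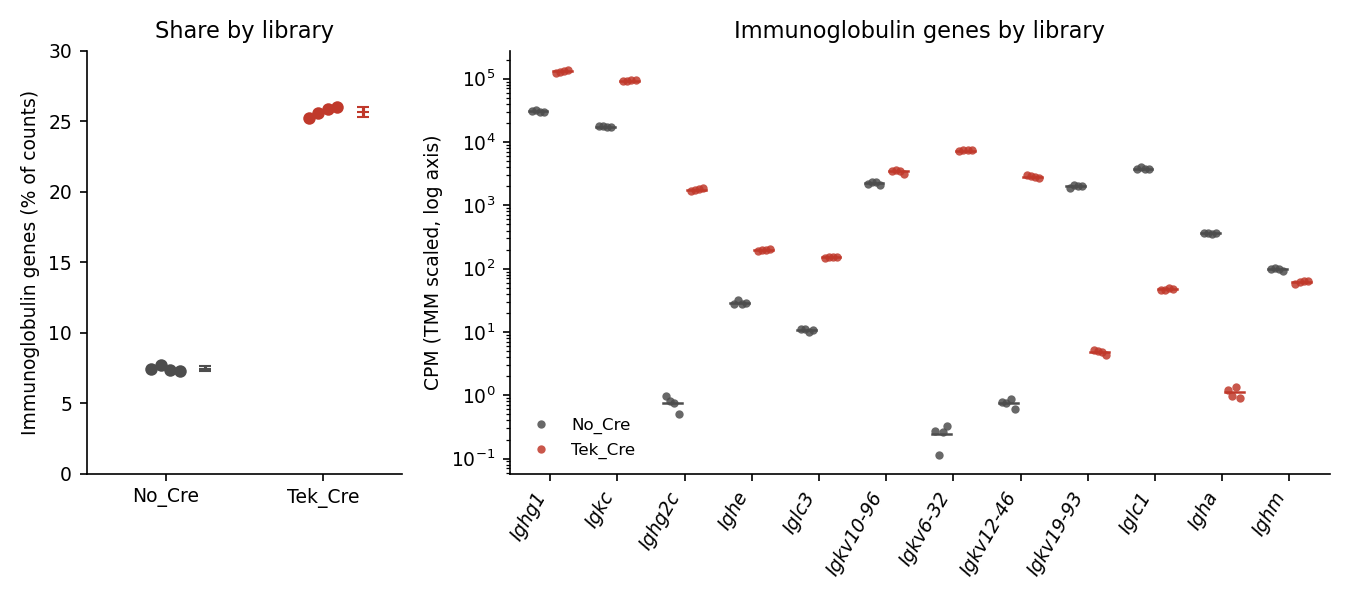
Left, immunoglobulin genes as a percentage of all counts in each of the 8 libraries (points), with the mean and SD of each group beside them: No_Cre lies between 7.31 and 7.71% and Tek_Cre between 25.2 and 26.0%. Right, CPM on a log axis of 12 immunoglobulin genes in each library (points, with a line at the group mean): the 4 libraries of a group lie together for every gene, while Igkv6-32 and Ighg2c are near 0 in No_Cre and Iglc1, Igkv19-93 and Igha are low in Tek_Cre.

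Plasma cell genes rose with the antibody genes. Of 30 genes of a plasma cell list tested, 26 rose, 2 fell and 2 did not pass, and the median log2 fold change was 1.26. Sdc1 stood at 27.9, 24.2, 25.97 and 25.9 CPM in No_Cre and 139, 126, 137 and 148 CPM in Tek_Cre (ENSMUSG00000020592.14, chr12:8771323-8793715 on the plus strand of GRCm38). Mzb1, a chaperone of antibody assembly, stood at 47.1, 47.6, 46.6 and 43.6 CPM in No_Cre and 227, 223, 229 and 244 CPM in Tek_Cre. Jchain, which joins IgA and IgM units, stood at 216, 221, 218 and 206 CPM in No_Cre and 898, 897, 880.3 and 819 CPM in Tek_Cre. In all 3 the lowest Tek_Cre library was more than 3 times the highest No_Cre library (2.40 ± 0.06, adjusted p = 3.44e-21 for Sdc1, 2.32 ± 0.05, adjusted p = 2.35e-22 for Mzb1 and 2.02 ± 0.05, adjusted p = 3.74e-20 for Jchain). Xbp1, a transcription factor of the plasma cell state, stood at 456, 466, 461 and 463 CPM in No_Cre and 1155, 1180.3, 1155 and 1149 CPM in Tek_Cre (1.33 ± 0.03, adjusted p = 1.05e-20). Irf4 went from 9.81 ± 0.672 CPM to 28.8 ± 2.62 CPM and Pou2af1 from 34.3 ± 1.35 CPM to 135 ± 2.72 CPM. The member with the most counts, the protease inhibitor Slpi, which neutrophils and epithelia also make, stood at 3198, 3120.00, 3128 and 3216 CPM in No_Cre and 10698, 10695, 11187 and 11811 CPM in Tek_Cre. Members that fell were Prg2, an eosinophil granule protein that plasma cells of mice also express, and Cd28, a costimulatory receptor with 59 counts over the 4 No_Cre libraries and 1 count over the 4 Tek_Cre libraries. Without Prg2 and Slpi, 25 of 28 members rose and 1 fell, with a median of 1.26.

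Plasma cells fold and export large amounts of protein, and genes of the unfolded protein response and the secretory pathway were raised in part. The unfolded protein response senses misfolded protein in the endoplasmic reticulum and acts through XBP1, ATF6 and ATF4. Of 46 members tested, 29 rose, 5 fell and 12 did not pass, with a median of 0.26. Outside the 10 members shared with the plasma cell list, 19 of 36 rose and 5 fell, with a median of 0.17. Creld2, a folding factor, stood at 106, 105, 108 and 105 CPM in No_Cre and 338, 354, 339.9 and 364 CPM in Tek_Cre (1.72 ± 0.04, adjusted p = 1.16e-21). Derl3, part of the channel that removes misfolded protein, stood at 23.1, 22.7, 23.1 and 22.9 CPM in No_Cre and 112, 108, 116 and 122 CPM in Tek_Cre (2.32 ± 0.06, adjusted p = 9.02e-21). Edem1, which marks misfolded glycoproteins for removal, went from 159 ± 6.36 CPM to 489 ± 9.56 CPM. The highest fold among the members was that of Kdelr3, a receptor that returns escaped proteins to the reticulum, from 0.6505 ± 0.194 CPM to 5.99 ± 0.685 CPM (3.21 ± 0.19, adjusted p = 1.12e-12). Calr, the chaperone calreticulin, which early granulocytes also make in quantity, went against these at 788, 825, 808 and 791 CPM in No_Cre and 635, 639, 646 and 614 CPM in Tek_Cre (-0.34 ± 0.03, adjusted p = 1.05e-08). Kdelr2, Sec11a and Atf6 also fell, by small amounts. In the fit without immunoglobulin genes their log2 fold changes were -0.19, -0.12 and -0.17 (adjusted p = 0.00064, 0.0179 and 0.0201).

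Promoters of 3 of these genes are shown because they carry the same ER stress element, the letters CCAAT and CCACG with 9 bases between them on either strand, while Creld2 and Derl3 rose and Calr fell. The sequences are 5′ to 3′ on the gene's strand, from RefSeq on GRCm38.p6, with the element in capitals (here it lies on the opposite strand) and 50 bases either side. The element ends 107 bases before the start site of Creld2, 137 bases before that of Derl3 and 143 bases before that of Calr.
Creld2 promoter, chr15:88819470-88819588, plus strand: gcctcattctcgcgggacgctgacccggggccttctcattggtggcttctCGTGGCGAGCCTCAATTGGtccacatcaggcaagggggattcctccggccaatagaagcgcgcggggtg
Derl3 promoter, chr10:75893192-75893310, plus strand: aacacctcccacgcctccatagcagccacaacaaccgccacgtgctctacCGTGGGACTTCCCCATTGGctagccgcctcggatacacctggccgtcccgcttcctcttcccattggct
Calr promoter, chr8:84847025-84847143, minus strand: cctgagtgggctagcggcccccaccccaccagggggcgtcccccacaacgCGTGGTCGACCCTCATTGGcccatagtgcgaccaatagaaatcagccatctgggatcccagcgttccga
In windows of 250 bases before to 50 after the start site, the element was found in 0.119% of all 32851 windows and in 9 of the 39 windows of the 36 list genes with a window. Of the 9 genes that held it (Calr, Canx, Creld2, Derl3, Dnajc3, Hsp90b1, Hspa5, Pdia6 and Syvn1), 6 rose, 1 fell and 2 did not pass. Of the 26 tested genes without it, 15 rose, 2 fell and 9 did not pass. A match is a description of these letters and not a binding site.

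B cell genes moved in both directions. Of 18 tested, 11 rose, 5 fell and 2 did not pass (median 0.49). Summed levels were 262 to 275 CPM in No_Cre and 516 to 529 CPM in Tek_Cre. A large part of this rise was Pou2af1, which is also on the plasma cell list and whose levels are given above. Cd79a, a signaling chain of the antigen receptor, stood at 21.3, 22.5, 22.4 and 22.9 CPM in No_Cre and 78.1, 78.2, 76.6 and 78.6 CPM in Tek_Cre. Vpreb3 stood at 6.34, 6.298, 7.02 and 7.01 CPM in No_Cre and 28.8, 30.7, 28.3 and 30.1 CPM in Tek_Cre, and the adaptor Blnk went from 14.6 ± 0.861 CPM to 47.9 ± 1.31 CPM. No library of one group reached the other group in these 3. Among the members that fell, Igll1, part of the surrogate light chain of precursors, stood at 4.13, 4.42, 4.51 and 4.06 CPM in No_Cre and 0.0875, 0.148, 0 and 0 CPM in Tek_Cre. Its partner Vpreb1 stood at 2.51, 2.77, 2.47 and 2.44 CPM in No_Cre and 0.175, 0.148, 0.161 and 0.371 CPM in Tek_Cre. Spib, a B cell and plasmacytoid dendritic cell factor, had 121 counts over the 4 No_Cre libraries and 0 counts over the 4 Tek_Cre libraries, at least 32.8-fold lower against a floor of 3 counts over the group. These 3 were under 5 CPM in every library of either group. Dntt, which adds bases at joints of antigen receptor genes in lymphoid precursors, rose from 3.03 ± 0.242 CPM to 19.2 ± 0.781 CPM (2.66 ± 0.11, adjusted p = 5.50e-16).

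Neutrophil genes moved in opposite directions by granule stage. Neutrophils fill primary granules as promyelocytes, and secondary and tertiary granules later. Of 18 late neutrophil genes, 17 rose, 1 fell and 0 did not pass, with a median of 0.68. S100a9, a subunit of calprotectin, stood at 4625, 4769, 4727 and 4598 CPM in No_Cre and 8068, 8157, 8081 and 7929 CPM in Tek_Cre. Mmp8, neutrophil collagenase, stood at 156, 161, 163 and 153 CPM in No_Cre and 348, 358, 344 and 324 CPM in Tek_Cre. Mmp9, gelatinase of tertiary granules, stood at 333, 323, 313 and 324 CPM in No_Cre and 661, 664, 695 and 712 CPM in Tek_Cre. In all 3 the Tek_Cre libraries were above the No_Cre libraries, by 0.78 ± 0.03, 1.12 ± 0.05 and 1.08 ± 0.04 on the log2 scale (adjusted p = 1.65e-15, 8.52e-16 and 6.43e-17). Retnlg, a resistin-like protein of mature neutrophils, went from 267 ± 5.201 CPM to 577 ± 23.1 CPM. The member that fell was Csf3r, the G-CSF receptor, which precursors express too (155 ± 7.04 CPM to 125 ± 7.497 CPM). The summed level is given above.

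Of 18 primary granule genes, 2 rose, 13 fell and 3 did not pass, with a median of -0.61. Mpo, myeloperoxidase, stood at 4496, 4359, 4322 and 4472 CPM in No_Cre and 1072, 1075, 1131 and 1200.02 CPM in Tek_Cre (ENSMUSG00000009350.13, chr11:87793581-87804413 on the plus strand of GRCm38). Elane, neutrophil elastase, stood at 1805, 1776, 1739 and 1804 CPM in No_Cre and 599, 592, 629 and 675 CPM in Tek_Cre. Ctsg, cathepsin G, stood at 315, 319, 312 and 309.8 CPM in No_Cre and 62.2, 58.9, 62.8 and 61.8 CPM in Tek_Cre. Every Tek_Cre library was below every No_Cre library for each, with log2 fold changes of -1.98 ± 0.05, -1.51 ± 0.05 and -2.35 ± 0.04 (adjusted p = 6.06e-21, 1.20e-18 and 6.91e-24). Nkg7, a granule membrane protein of granulocyte progenitors and cytotoxic cells, went from 369 ± 5.53 CPM to 183 ± 6.19 CPM. The summed level over the list was 10179.7 to 10414 CPM in No_Cre and 4588 to 4776 CPM in Tek_Cre. On library totals with immunoglobulin genes, 17 of the 18 fell and 0 rose, and on totals without them the median relative to all genes was -0.61.

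Most eosinophil genes fell. Of 11 tested, 1 rose, 8 fell and 2 did not pass, with a median of -4.54. Summed over the 12 members, levels were 1853 to 1906 CPM in No_Cre and 279 to 299 CPM in Tek_Cre. Most of the Tek_Cre sum was the surface protein gene Cd24a, the member that rose. It went from 192 to 220 CPM of counts outside immunoglobulin genes (0.22 on the log2 scale in the fit without these genes). Prg2, major basic protein, stood at 1120.5, 1083, 1101 and 1135 CPM in No_Cre and 13.8, 15.1, 17.3 and 17.7 CPM in Tek_Cre. Epx, eosinophil peroxidase, stood at 421, 409, 403 and 422 CPM in No_Cre and 1.97, 3.62, 3.27 and 2.97 CPM in Tek_Cre (ENSMUSG00000052234.2, chr11:87864000-87875536 on the minus strand of GRCm38). Prg3, a homolog of Prg2, stood at 38.4, 35.1, 36.8 and 38.5 CPM in No_Cre and 1.182, 1.699, 1.61 and 1.898 CPM in Tek_Cre. The Tek_Cre libraries lay far below the No_Cre libraries, by 69.5-fold, 139.9-fold and 23.3-fold (-6.11 ± 0.06, adjusted p = 4.88e-29, -7.17 ± 0.09, adjusted p = 3.81e-27 and -4.54 ± 0.11, adjusted p = 4.30e-21). Alox15, a lipoxygenase of eosinophils, stood at 20.2, 20.1, 22.8 and 21.5 CPM in No_Cre and 0.175, 0.148, 0.268 and 0.165 CPM in Tek_Cre. The eosinophil ribonucleases Ear1 (10.6 ± 0.58002 CPM to 0.219 ± 0.0916 CPM) and Ear6 (21.99 ± 1.302 CPM to 0.376 ± 0.15003 CPM), which are close paralogs whose reads may be shared, followed. In Tek_Cre they rested on 18 and 28 counts over 4 libraries.

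Most genes of a joint mast cell and basophil list rose. Mast cells and basophils share the histamine enzyme and the IgE receptor but differ in their proteases. Of 20 genes of the joint list, 15 rose, 2 fell and 3 did not pass (median 0.87). Tpsab1, mast cell tryptase, stood at 43.9, 41.5, 42.6 and 43.8 CPM in No_Cre and 210.4, 206, 223 and 226 CPM in Tek_Cre (2.33 ± 0.05, adjusted p = 1.96e-21). Its neighbor Tpsb2, a related tryptase gene, stood at 849, 853, 822 and 844 CPM in No_Cre and 1913, 1938, 1899 and 2058 CPM in Tek_Cre (1.21 ± 0.04, adjusted p = 4.39e-19). Cma1, a mast cell chymase, went from 615 ± 12.5 CPM to 1303 ± 30.9 CPM, and Hdc, which makes histamine, from 147 ± 2.79 CPM to 366 ± 13.98 CPM. In these genes every Tek_Cre library was above every No_Cre library. Mcpt8, the basophil protease, stood at 24.8, 23.5, 23.2 and 25.2 CPM in No_Cre and 2.98, 3.103, 3.804 and 3.26 CPM in Tek_Cre (-2.88 ± 0.09, adjusted p = 5.26e-18), and the mast cell chymase Mcpt4 went from 84.6 ± 2.87 CPM to 64.2 ± 4.77 CPM.

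Erythroid genes fell at both stages. Of 18 early erythroid genes 0 rose, 14 fell and 4 did not pass (median -0.45), and of 17 late ones 0 rose, 13 fell and 4 did not pass (median -0.73). Klf1, the master factor of red cell genes, stood at 30.3, 30.4, 28.3 and 27.5 CPM in No_Cre and 10.6, 10.5, 9.32 and 9.698 CPM in Tek_Cre (-1.54 ± 0.07, adjusted p = 2.77e-15). Car1, carbonic anhydrase of red cells, stood at 158, 166, 166 and 159 CPM in No_Cre and 26.9, 29.3, 26.95 and 29.2 CPM in Tek_Cre (-2.53 ± 0.05, adjusted p = 9.66e-24). Ermap, a red cell membrane protein, stood at 16.1, 18.97, 18.5 and 21.02 CPM in No_Cre and 2.19, 4.14, 3.59 and 3.51 CPM in Tek_Cre. No Tek_Cre library reached a No_Cre library in any of them. Mfsd2b, a lipid transporter of red cell precursors and platelets, went from 147 ± 3.46 CPM to 72.8 ± 4.62 CPM. Sptb, a spectrin of the red cell skeleton, went from 7.17 ± 0.837 CPM to 0.967 ± 0.331 CPM. The adult beta globin Hbb-bt was low in both groups (19.5 ± 0.819 CPM to 8.03 ± 1.06 CPM), and its reads may be shared with its paralogs. Summed early erythroid levels were 2649 to 2707 CPM in No_Cre and 1961 to 2082 CPM in Tek_Cre, and late ones 289.5 to 298 CPM in No_Cre and 242 to 255 CPM in Tek_Cre, a small part of either library.

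Megakaryocyte genes moved in both directions. Of 23 tested, 6 rose, 11 fell and 6 did not pass (median -0.15), against 26.4% rising and 26.5% falling among all genes. Rises were thus near the share of all genes. Summed levels were 4093 to 4201 CPM in No_Cre and 4007 to 4275 CPM in Tek_Cre. Pf4, platelet factor 4, stood at 266, 261, 255 and 267 CPM in No_Cre and 125, 129, 129 and 133 CPM in Tek_Cre (-1.02 ± 0.04, adjusted p = 4.70e-17), with no overlap. The glycoprotein Gp9 went from 73.5 ± 1.99 CPM to 53.1 ± 3.74 CPM. Against these, Itgb3, the platelet integrin beta 3 chain, stood at 131, 144, 131 and 126 CPM in No_Cre and 207, 208, 233 and 216 CPM in Tek_Cre, above No_Cre in every library (0.70 ± 0.05, adjusted p = 7.42e-12). Thbs1, thrombospondin 1, went from 17.3 ± 1.77 CPM to 36.9 ± 1.32 CPM.

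**Figure D4:**
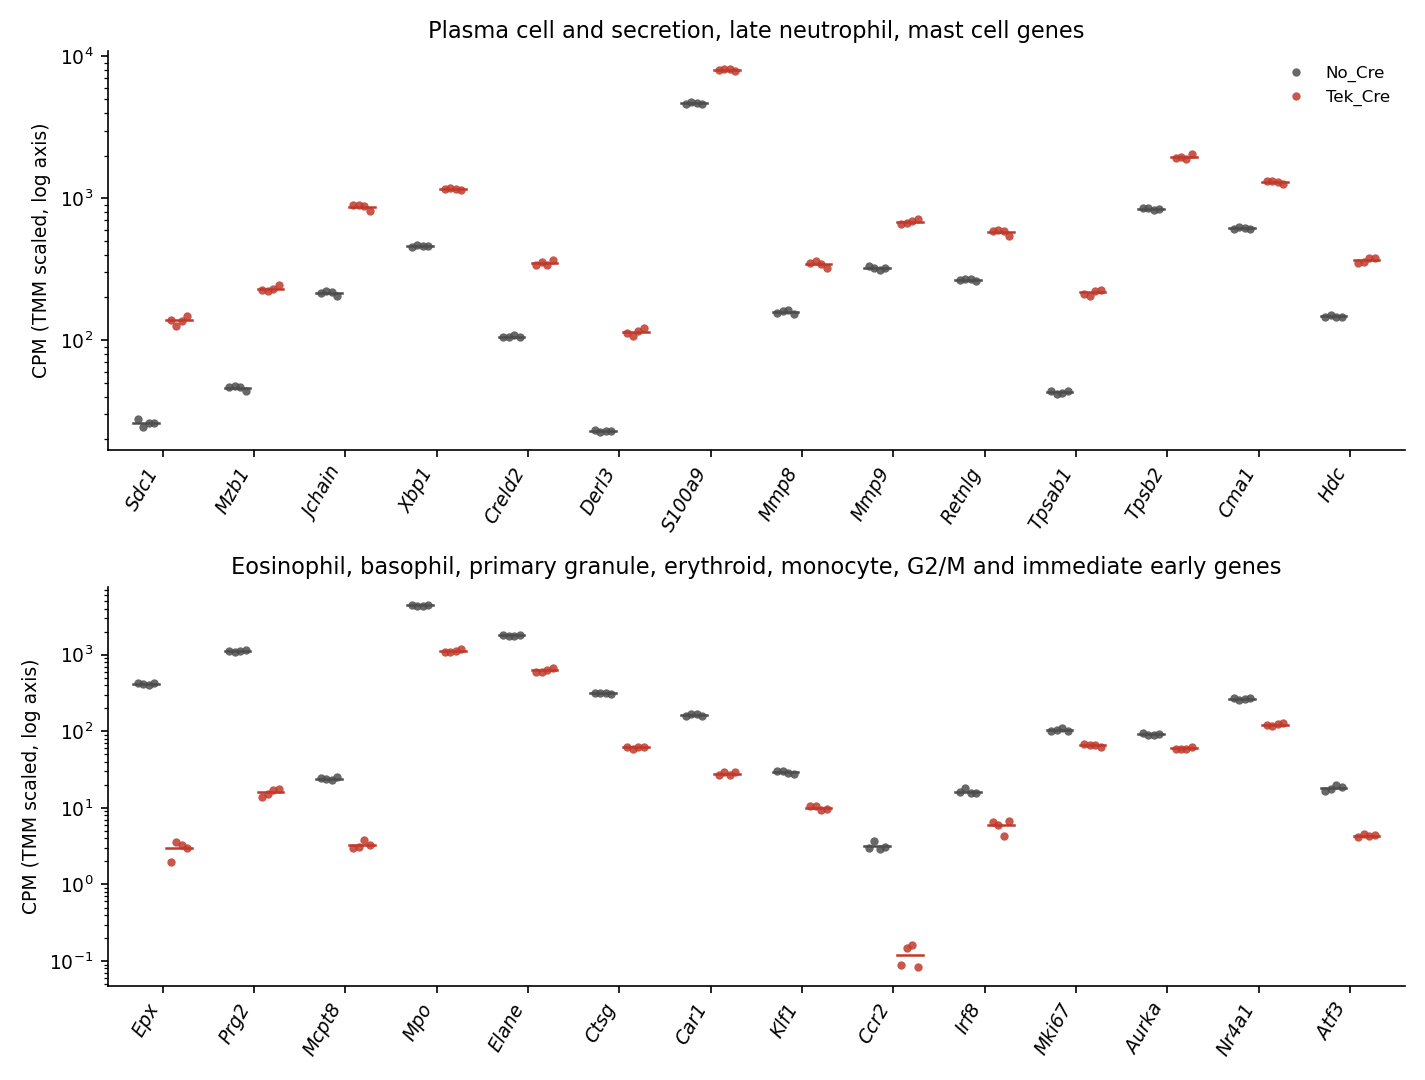
CPM on a log axis of 28 genes in each of the 8 libraries (points; No_Cre gray, Tek_Cre red; lines are group means). In the upper panel every Tek_Cre library lies above every No_Cre library, in the lower panel every Tek_Cre library lies below, from Sdc1 at 27.9, 24.2, 25.97 and 25.9 against 139, 126, 137 and 148 CPM to Epx at 421, 409, 403 and 422 against 1.97, 3.62, 3.27 and 2.97 CPM.

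Monocyte and dendritic cell genes mostly fell. Of 23 tested, 6 rose, 13 fell and 4 did not pass (median -0.30). Ccr2, the receptor that draws monocytes out of marrow, stood at 3.01, 3.73, 2.87 and 3.04 CPM in No_Cre and 0.0875, 0.148, 0.161 and 0.0825 CPM in Tek_Cre, near 0 in every Tek_Cre library. Irf8, the factor of monocyte and dendritic fate, stood at 15.99, 18.1, 15.6 and 15.5 CPM in No_Cre and 6.48, 6.06, 4.29 and 6.73 CPM in Tek_Cre (-1.46 ± 0.12, adjusted p = 2.35e-10). The coagulation factor gene F13a1 went from 12.5 ± 0.8505 CPM to 3.51 ± 0.704 CPM and the dendritic cell factor Zbtb46 from 3.44 ± 0.361 CPM to 0.655 ± 0.0716 CPM. Members that rose included Lyz2, lysozyme of monocytes and neutrophils (2057 ± 47.6 CPM to 2655 ± 44.8 CPM), the protease gene Ctss (21.9 ± 1.78 CPM to 35.5 ± 1.16 CPM) and Irf4. The summed level was 2367 to 2466 CPM in No_Cre and 3012 to 3091 CPM in Tek_Cre, most of it Lyz2.

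Of 14 T and NK cell genes tested, 7 rose, 6 fell and 1 did not pass (median 0.10). Summed levels were 418 to 431 CPM in No_Cre and 229.9 to 248 CPM in Tek_Cre. Most of this sum, and most of its fall, was Nkg7, which is also counted among the primary granule genes above. The chemokine gene Ccl5 went from 2.17 ± 0.358 CPM to 0.306 ± 0.1397 CPM and Cd7 from 3.47 ± 0.384 CPM to 0.982 ± 0.379 CPM, while Thy1, which some blood progenitors express, went from 3.68 ± 0.467 CPM to 6.78 ± 0.571 CPM. Of 22 endothelial genes, 3 rose, 12 fell and 7 did not pass (median -0.15). Among the rises was Sox18, from 1.34 ± 0.206 to 4.21 ± 0.846 CPM of counts outside immunoglobulin genes (1.67 on the log2 scale in the fit without these genes). The falls included Emcn, endomucin, which stem cells also express, at 17.5, 18.7, 17.9 and 15.8 CPM in No_Cre and 5.78, 5.32, 5.41 and 5.03 CPM in Tek_Cre (-1.70 ± 0.10, adjusted p = 5.77e-13), and Plvap (5.67 ± 0.871 CPM to 2.78 ± 0.397 CPM) and the scavenger receptor gene Stab1 (0.908 ± 0.125 CPM to 0.0827 ± 0.0657 CPM). Of 10 stromal genes tested out of 20, 3 rose, 3 fell and 4 did not pass. The collagen gene Col1a1 rose, from 0.902 ± 0.189 to 2.14 ± 0.442 CPM of counts outside immunoglobulin genes (1.25 on the log2 scale in the fit without these genes). The matrix protein gene Sparc went from 4.84 ± 0.345 CPM to 2.22 ± 0.293 CPM, and the adhesion molecule gene Vcam1 from 25.1 ± 0.901 CPM to 14.9 ± 0.652 CPM. Summed levels of endothelial genes were 942 to 973 CPM in No_Cre and 817 to 909 CPM in Tek_Cre, and of stromal genes 292 to 308 CPM in No_Cre and 276 to 306 CPM in Tek_Cre. The list of endothelial genes shares 5 members with that of LTHSC.

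The median of the stem cell genes themselves stayed near 0, while single members moved in both directions. Of 35 LTHSC genes tested, 14 rose, 9 fell and 12 did not pass, with a median of 0.07. Among all genes 26.4% rose and 26.5% fell, so that rises were more frequent on this list and falls about as frequent. Mecom, a transcription factor that keeps stem cells dormant, stood at 93.3, 97.1, 92.9 and 92.2 CPM in No_Cre and 129.6, 129, 131 and 128 CPM in Tek_Cre (0.46 ± 0.04, adjusted p = 1.10e-09). Sult1a1 and Fhl1, genes enriched in LTHSC, went from 18.2 ± 0.711 CPM to 34.3 ± 1.78 CPM and from 21.3 ± 0.582 CPM to 38.5 ± 0.808 CPM. Every Tek_Cre library was above every No_Cre library for these 3. Cd34, which LTHSC of adult mice lack and the next progenitors carry, stood at 421, 421, 434 and 430.3 CPM in No_Cre and 290.00, 297, 278 and 265 CPM in Tek_Cre (-0.59 ± 0.04, adjusted p = 2.03e-11), with every Tek_Cre library below. Gfi1b, a repressor shared with erythroid and megakaryocyte progenitors, went from 183 ± 4.94 CPM to 142 ± 9.57 CPM. Progenitor genes fell more often than they rose: of 20 multipotent progenitor genes 5 rose, 11 fell and 4 did not pass (median -0.19). Flt3, the receptor of lymphoid-primed progenitors, stood at 98.9, 105, 97.3 and 100.1 CPM in No_Cre and 79.03, 76.5, 79.6 and 74.7 CPM in Tek_Cre (-0.37 ± 0.04, adjusted p = 1.19e-07). Cd48, which LTHSC lack on their surface, stood at 32.6, 39.2, 34.7 and 32.5 CPM in No_Cre and 22.4, 19.3, 21.4 and 19.8 CPM in Tek_Cre (-0.74 ± 0.07, adjusted p = 8.55e-09). Plac8, high in myeloid and lymphoid progenitors, stood at 297, 297, 291 and 304 CPM in No_Cre and 161, 166, 163 and 167 CPM in Tek_Cre (-0.86 ± 0.04, adjusted p = 1.75e-15). The groups did not overlap in any of the 3, and the lymphoid gene Dntt went the other way.

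Cell division genes fell, by small amounts. Of 53 G2/M genes, 1 rose, 40 fell and 12 did not pass, with a median of -0.36, beside 26.5% falling among all genes. Mki67 stood at 99.8, 103, 109 and 102 CPM in No_Cre and 68.3, 65.98, 65.7 and 63.01 CPM in Tek_Cre (-0.66 ± 0.05, adjusted p = 3.20e-11). Aurka, the spindle pole kinase, stood at 93.6, 90.7, 89.8 and 92.6 CPM in No_Cre and 58.9, 59.04, 59.3 and 61.7 CPM in Tek_Cre (-0.62 ± 0.04, adjusted p = 8.49e-12). Kif20a, a kinesin of cell separation, stood at 94.9, 101, 96.5 and 97.7 CPM in No_Cre and 61.3, 66.9, 64.8 and 59.3 CPM in Tek_Cre (-0.63 ± 0.05, adjusted p = 1.40e-10). The Tek_Cre libraries were lower by about 1.5-fold in each, with no overlap. Gas2l3, a cytoskeletal linker of dividing cells, had the largest fall of the list, from 36.95 ± 1.92 CPM to 19.9 ± 0.619 CPM. Of 44 S phase genes, 1 rose, 21 fell and 22 did not pass (median -0.15). Mcm5, of the replication helicase, stood at 515, 531, 488 and 511 CPM in No_Cre and 349, 357, 379 and 390.4 CPM in Tek_Cre (-0.47 ± 0.05, adjusted p = 9.61e-09), and the primase gene Prim1 went from 58.2 ± 1.21 CPM to 42.7 ± 4.29 CPM. Ccne1, cyclin E1, was the member that rose, from 29.1 ± 2.35 CPM to 49.5 ± 1.595 CPM (0.76 ± 0.06, adjusted p = 5.95e-11). Of 48 MYC targets, 3 rose, 27 fell and 18 did not pass (median -0.12), with Cad, which starts pyrimidine synthesis, from 194 ± 8.03 CPM to 138 ± 7.03 CPM, the ribosome assembly gene Rrp12 from 72.2 ± 2.298 CPM to 52.6 ± 4.78 CPM and the helicase gene Ddx21, which rose, from 80.6 ± 2.65 CPM to 107 ± 3.62 CPM. Levels of erythroid and primary granule genes, which mark dividing progenitors, fell in the same libraries, and their part in the fall of division genes was not tested.

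The promoter of Mki67 is shown for the cell cycle homology region, the letters TTTGAA on either strand, bound by the DREAM and B-MYB complexes that repress or activate G2/M genes. It is given 5′ to 3′ on the gene's strand, from RefSeq on GRCm38.p6, with both copies in capitals, ending 110 and 92 bases before the start site.
Mki67 promoter, chr7:135716422-135716545, minus strand: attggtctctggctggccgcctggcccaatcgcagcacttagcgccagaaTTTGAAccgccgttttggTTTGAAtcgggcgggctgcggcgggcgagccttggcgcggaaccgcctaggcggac
The letters occurred in 17.9% of all windows, and in 34 of the 49 windows of the 45 G2/M genes with a window. Of the 32 genes that held them, 23 fell, 1 rose and 8 did not pass. Of the 13 without them, 11 fell and 2 did not pass.

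Genes tied to quiescence did not rise together. Of 32 tested, 9 rose, 13 fell and 10 did not pass (median -0.04). Cdkn1a, the cell cycle inhibitor p21, stood at 23.3, 19.5, 19.2 and 20.3 CPM in No_Cre and 24.8, 24.8, 25.1 and 25.3 CPM in Tek_Cre (0.28 ± 0.07, adjusted p = 0.00106). Cdkn1c, p57, a mark of dormant stem cells, stood at 11.3, 9.02, 10.3 and 12.2 CPM in No_Cre and 14.7, 11.97, 13.7 and 12.7 CPM in Tek_Cre (0.32 ± 0.10, adjusted p = 0.0134). Cdkn1a did not overlap between groups and Cdkn1c did, and Cdkn1c did not pass without No_Cre replicate 2 (adjusted p = 0.0688) or Tek_Cre replicate 1 (0.0657). With library totals alone both changed sign, to -0.07 and -0.03 on the log2 scale, and neither passed. Hes1, a Notch target, went from 7.78 ± 0.638 CPM to 12.8 ± 0.561 CPM, and Rbl2, the pocket protein p130, from 75.8 ± 3.52 CPM to 98.8 ± 3.37 CPM. Of the members that fell, Nr4a1 stood at 269.99, 257, 264 and 276 CPM in No_Cre and 119.9, 117, 123 and 128 CPM in Tek_Cre (-1.13 ± 0.05, adjusted p = 2.65e-15). Klf2 stood at 746, 709, 735 and 806 CPM in No_Cre and 461, 449.8, 453 and 483 CPM in Tek_Cre (-0.70 ± 0.04, adjusted p = 1.86e-12), and Klf6 went from 688 ± 5.08 CPM to 439.97 ± 7.81 CPM.

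Immediate early genes, which rise within minutes of stress or handling, fell. Of 29 tested, 2 rose, 21 fell and 6 did not pass (median -0.35), and 8 of the list are also on the quiescence list. Atf3, a stress factor, stood at 16.8, 17.4, 19.9 and 18.8 CPM in No_Cre and 4.16, 4.58, 4.23 and 4.37 CPM in Tek_Cre (-2.08 ± 0.09, adjusted p = 1.49e-15). The phosphatase gene Dusp5 went from 43.6 ± 2.08 CPM to 22.7 ± 1.39 CPM. Of 21 heat shock genes, 2 rose, 12 fell and 7 did not pass (median -0.16). The inducible HSP70 genes Hspa1a and Hspa1b, near-identical copies whose reads may be shared, went from 7.92 ± 0.728 CPM to 1.62 ± 0.267 CPM and from 10.1 ± 1.07 CPM to 0.566 ± 0.173 CPM. Their cofactor Dnajb1 stood at 310.2, 312, 305 and 316 CPM in No_Cre and 225, 227, 227 and 231 CPM in Tek_Cre, lower in every Tek_Cre library (-0.45 ± 0.03, adjusted p = 1.58e-10).

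Targets of p53, the damage response factor, rose more often than they fell. Of 29 tested, 15 rose, 6 fell and 8 did not pass (median 0.21). Trp53inp1, a promoter of autophagy and cell death, stood at 23.4, 26.3, 26.6 and 24.3 CPM in No_Cre and 78.7, 77.2, 78.4 and 74.7 CPM in Tek_Cre (1.62 ± 0.07, adjusted p = 7.09e-15). Phlda3, an inhibitor of AKT, stood at 1.51, 1.15, 0.707 and 1.24 CPM in No_Cre and 5.21, 6.43, 6.27 and 7.51 CPM in Tek_Cre (2.45 ± 0.19, adjusted p = 1.40e-10). Perp went from 2.804 ± 0.50996 CPM to 7.81 ± 0.685 CPM, and Cdkn1a by the small amount above. Fas, the death receptor, fell (3.89 ± 0.2796 CPM to 2.32 ± 0.617 CPM). Tek_Cre and No_Cre did not overlap in any of these 5. Of 23 regulators of apoptosis, 9 rose, 5 fell and 9 did not pass.

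The interferon response was mixed. Of 56 genes tested, 20 rose, 13 fell and 23 did not pass (median 0.02), against 26.4% rising and 26.5% falling among all genes. Among the members that rose, Zbp1, a sensor of Z-form nucleic acid, stood at 30.2, 32.1, 33.3 and 33.6 CPM in No_Cre and 108, 108, 113 and 112 CPM in Tek_Cre (1.77 ± 0.06, adjusted p = 1.28e-17). Gbp4, a guanylate-binding protein, stood at 0.695, 0.461, 0.707 and 0.737 CPM in No_Cre and 6.56, 6.87, 7.61 and 6.64 CPM in Tek_Cre (3.41 ± 0.18, adjusted p = 8.83e-14), and Iigp1 went from 18.2 ± 0.576 CPM to 37.1 ± 2.58 CPM. Cxcl9, the gamma-induced chemokine, had 1 count over the 4 No_Cre libraries and 453 counts over the 4 Tek_Cre libraries, a ratio of 516 with a 95% counting interval of 98.2 to 21772. All 4 Tek_Cre libraries held it, at 5.995, 5.32, 6.16 and 5.32 CPM. Among the members that fell, Ifit2, an antiviral RNA-binding protein, stood at 26.9, 30.1, 31.01 and 32.4 CPM in No_Cre and 16.7, 17.1, 16.6 and 15.5 CPM in Tek_Cre (-0.87 ± 0.07, adjusted p = 6.34e-10), Oasl1 went from 8.01 ± 0.688 CPM to 3.7002 ± 0.169 CPM and Mx2 from 1.57 ± 0.255 CPM to 0.346 ± 0.228 CPM. Of 15 MHC class II genes, which present antigen, 2 rose, 7 fell and 6 did not pass. H2-Eb1, a class II beta chain, stood at 63.9, 67.4, 62.9 and 67.01 CPM in No_Cre and 31.5, 29.9, 33.2 and 34.6 CPM in Tek_Cre (-1.01 ± 0.06, adjusted p = 3.97e-13), H2-Ab1 went from 236 ± 5.81 CPM to 171 ± 11.9 CPM, and Ciita, the class II activator that plasma cells silence, from 8.16 ± 0.778 CPM to 3.61 ± 0.424 CPM. Cd74, the invariant chain, rose instead, at 496, 504, 483 and 499.8 CPM in No_Cre and 711, 746, 771 and 806 CPM in Tek_Cre (0.61 ± 0.05, adjusted p = 3.61e-10). Of 21 MHC class I genes 3 rose, 1 fell and 17 did not pass (median 0.02).

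Counts in the signaling lists are to be read against 26.4% rising and 26.5% falling among all genes. Of 31 TGF-beta genes 13 rose, 8 fell and 10 did not pass (median 0.10). Tgfb1, the main ligand of marrow and a keeper of stem cell dormancy, stood at 112, 103, 109 and 116 CPM in No_Cre and 77.3, 75.1, 77.1 and 78.9 CPM in Tek_Cre (-0.51 ± 0.05, adjusted p = 2.73e-09). The ligand gene Tgfb3 went from 4.67 ± 0.533 CPM to 10.8 ± 0.948 CPM, and the target genes Id2 and Tgfbi from 49.9 ± 1.76 CPM to 76.8 ± 3.27 CPM and from 71.2 ± 1.37 CPM to 115 ± 4.69 CPM. Tgfb1 was thus lower in every Tek_Cre library while these target genes were higher in every one. Of 27 Wnt genes 7 rose, 10 fell and 10 did not pass, with the receptor gene Fzd8 from 6.81 ± 0.628 CPM to 23.2 ± 2.34 CPM and the lymphoid Wnt factor Lef1 from 1.04 ± 0.0645 CPM to 0.112 ± 0.0803 CPM. Of 29 NF-kB and TNF genes 11 rose, 8 fell and 10 did not pass. Tnfaip3, a brake on NF-kB, went from 51.6 ± 2.33 CPM to 32.1 ± 1.802 CPM, Tnf from 12.6 ± 1.22 CPM to 20.2 ± 0.918 CPM, and Cd83, of mature dendritic cells, had 256 counts over the 4 No_Cre libraries and 1 count over the 4 Tek_Cre libraries. Of 33 genes that report BCR-ABL, STAT5 and RAS output 8 rose, 11 fell and 14 did not pass. The STAT5 targets Cish and Socs1 moved apart, Cish from 53.7 ± 3.38 CPM to 37.96 ± 3.54 CPM and Socs1 from 8.899 ± 0.757 CPM to 13.6 ± 1.15 CPM.

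Of 34 genes of homing and the CXCL12 axis, 9 rose, 8 fell and 17 did not pass, which is near the share among all genes (median -0.02). Among the members that rose, Itgb2, the shared beta 2 chain, stood at 357, 347, 337 and 339.7 CPM in No_Cre and 493, 496, 515 and 539 CPM in Tek_Cre (0.56 ± 0.04, adjusted p = 1.23e-10). Itgam, the CD11b chain found on neutrophils, went from 25.5 ± 1.43 CPM to 40.2 ± 1.64 CPM, and the junction molecule gene Jam2 from 5.897 ± 0.631 CPM to 13.4 ± 1.06 CPM. Dpp4, the protease that cuts CXCL12, stood at 16.96, 17.8, 16.9 and 18.3 CPM in No_Cre and 11.2, 12.7, 11.8 and 10.3 CPM in Tek_Cre (-0.62 ± 0.09, adjusted p = 3.86e-06). Vcam1, the ligand of integrin alpha 4, fell as given above. Cxcr4 and Ackr3 did not pass or were not tested.

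The medians of the other lists were near 0. Of 32 genes of the ATF4 amino acid response 13 rose, 12 fell and 7 did not pass: the transporter chain gene Slc3a2, which plasma cells carry as CD98, stood at 421, 409.8, 407 and 409 CPM in No_Cre and 743, 745, 768 and 775 CPM in Tek_Cre (0.88 ± 0.04, adjusted p = 1.03e-14), the proline enzyme gene Pycr1 went from 15.8 ± 1.303 CPM to 42.1 ± 4.51 CPM, and the cystine transporter gene Slc7a11 from 6.96 ± 0.398 CPM to 2.07 ± 0.562 CPM. Of 25 glycolysis genes 7 rose, 6 fell and 12 did not pass. Of 22 hypoxia genes 9 rose, 6 fell and 7 did not pass. Of 25 cholesterol synthesis genes 11 rose, 4 fell and 10 did not pass. Of 12 PRC2 genes 4 rose, 3 fell and 5 did not pass. Of 13 mitochondrially encoded genes, 5 are listed at 0 as given above and 7 were tested, of which 0 rose, 0 fell and 7 did not pass. Of 6 sex-linked genes 1 rose, 1 fell and 4 did not pass. The medians of these 7 lists lay between -0.04 and 0.07 on the log2 scale.

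**Figure D5:**
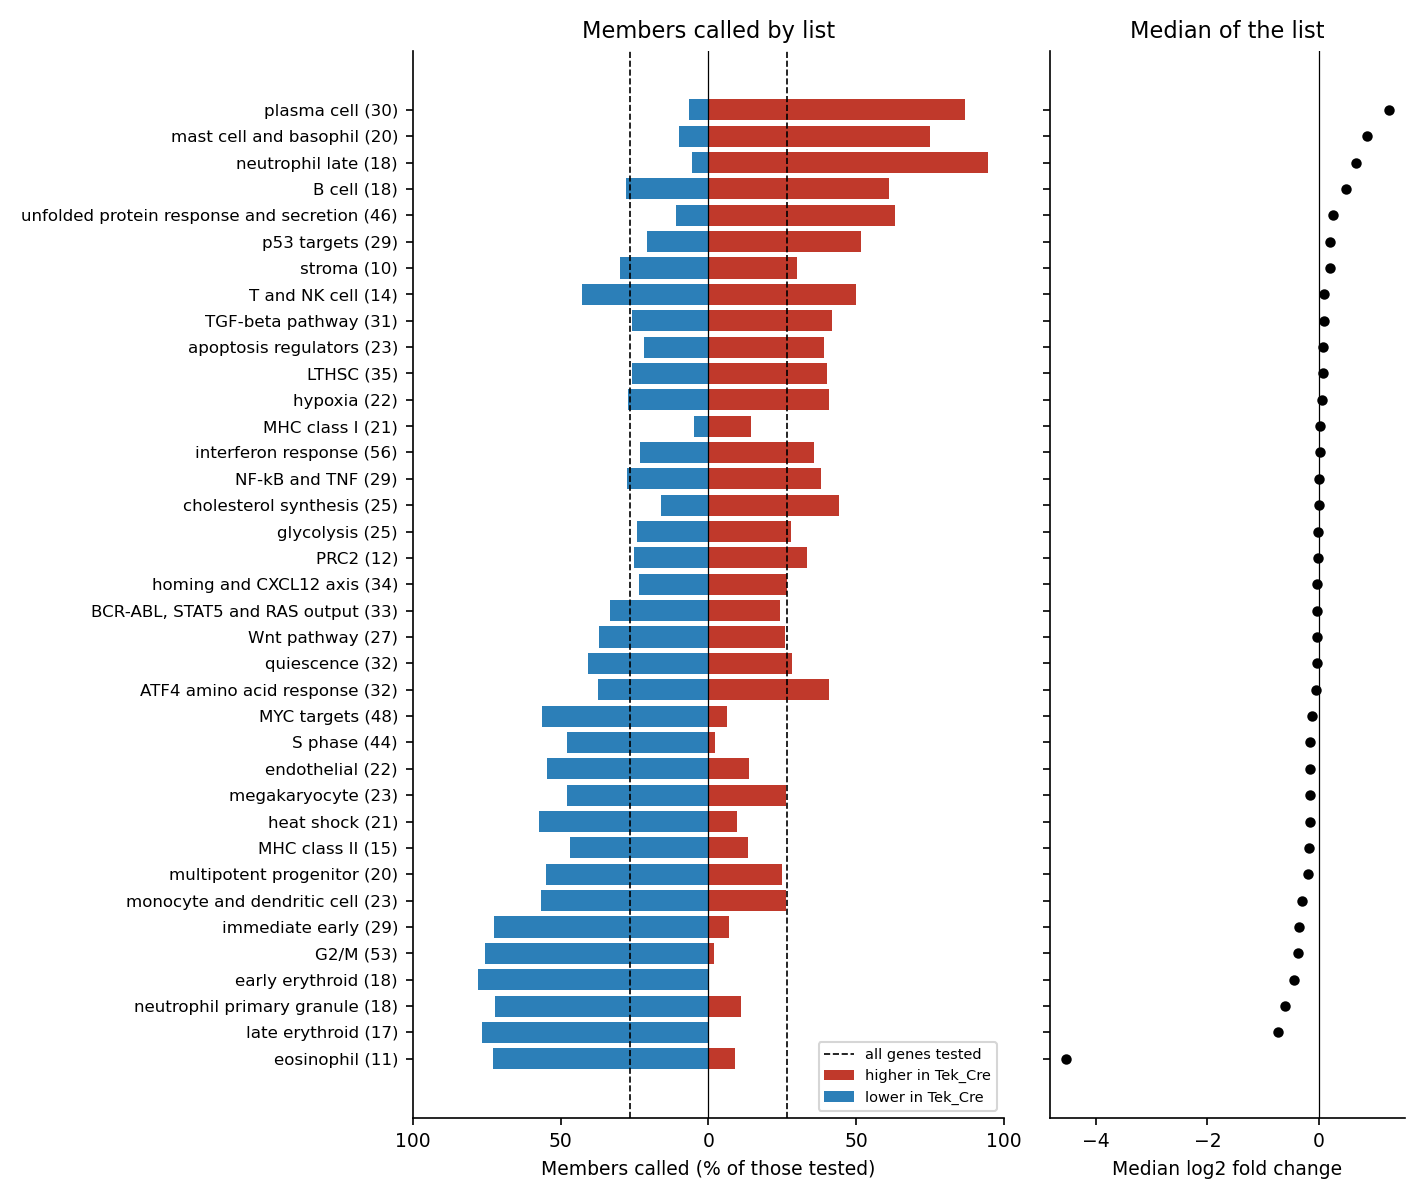
Left, percentage of the tested members (number in brackets) of 37 gene lists that rose (red, to the right) or fell (blue, to the left) in Tek_Cre, with dashed lines at 26.4% and 26.5%, the shares among all genes tested. Right, the median log2 fold change of each list, from -4.54 for eosinophil genes to 1.26 for plasma cell genes.

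Among all genes outside the immunoglobulin genes, the 15 largest rises and the 15 largest falls were taken among those with at least 5 CPM in the higher group. Ces2e, a carboxylesterase of gut and liver, had 0 counts over the 4 No_Cre libraries and 408 counts over the 4 Tek_Cre libraries, at least 165-fold higher in Tek_Cre. Tbx1, a developmental transcription factor, stood at 0.2704, 0.192, 0.398 and 0.2304 CPM in No_Cre and 8.402, 7.09, 7.88 and 9.202 CPM in Tek_Cre (4.90 ± 0.21, adjusted p = 4.49e-14). Nuggc, a nuclear GTPase of germinal center B cells, stood at 1.082, 0.7297, 0.928 and 0.783 CPM in No_Cre and 13.04, 17.9, 14.04 and 13.2 CPM in Tek_Cre (4.02 ± 0.16, adjusted p = 1.26e-14). These 3 were far lower in every No_Cre library than in any Tek_Cre library. Cgnl1, a junction protein, went from 0.272 ± 0.196 CPM to 6.605 ± 1.396 CPM, the gastrokine gene Gkn3 from 0.251 ± 0.174 CPM to 5.11 ± 0.341 CPM, and Muc20, a mucin, from 1.47 ± 0.286 CPM to 12.7 ± 0.478 CPM. Fap, fibroblast activation protein, went from 0.832 ± 0.183 CPM to 7.06 ± 1.02 CPM, the acyl-CoA synthetase gene Acsbg1 from 1.23 ± 0.204 CPM to 9.55 ± 0.562 CPM, and Chrnd, an acetylcholine receptor subunit, from 0.9904 ± 0.484 CPM to 6.62 ± 1.17 CPM. The peptide transporter gene Slc15a2 went from 0.657 ± 0.222 CPM to 6.41 ± 0.996 CPM, the junction gene Marveld3 from 0.518 ± 0.1897 CPM to 5.59 ± 0.547 CPM and Rhpn2 from 1.21 ± 0.287 CPM to 12.01 ± 0.7697 CPM. Cxcl9, Gbp4 and Kdelr3, named above, complete the 15 largest rises. Of the 15 largest falls, 6 were the eosinophil genes above, Mcpt8, Sptb and Hspa1b were named as well, and the other 6 follow. Rpl39l, a ribosomal protein gene best known from testis, had 586 counts over the 4 No_Cre libraries and 1 count over the 4 Tek_Cre libraries, and Prss50, a protease gene of testis, had 501 counts over the 4 No_Cre libraries and 1 count over the 4 Tek_Cre libraries, ratios whose 95% counting intervals start at 86.3 and 73.7. Scin, an actin-severing protein, stood at 10.04, 9.56, 10.95 and 10.6 CPM in No_Cre and 0.394, 0.517, 0.482 and 0.454 CPM in Tek_Cre (-4.48 ± 0.15, adjusted p = 1.65e-17). Sphk1, which makes sphingosine 1-phosphate, stood at 13.9, 17.7, 16.4 and 15.9 CPM in No_Cre and 0.919, 1.11, 1.82 and 1.197 CPM in Tek_Cre (-3.67 ± 0.13, adjusted p = 5.42e-17). Both were below 2 CPM in every Tek_Cre library. Apc2 went from 14.004 ± 3.46 CPM to 1.02 ± 0.427 CPM and Rbm44 from 7.81 ± 1.002 CPM to 0.766 ± 0.177 CPM.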

How the data were processed

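RNA of sorted leukemic LTHSC was sequenced from 12 libraries, and 8 of them were compared, 4 of Tek_Cre and 4 of No_Cre mice. The deposited table holds counts per gene, not normalized, and all 12 of its columns were used. Per the labels' protocols, cDNA came from a SMARTer Ultra Low Input kit and was made into libraries with Nextera XT. The submitters' processing notes name Trim Galore 0.4.4, STAR 2.5.3a, HTSeq 0.9.1, DESeq2 1.18.1 and GRCm38, without their order. The strand setting and the treatment of reads with several matches are not given in the sources used here, so near-identical paralogs, immunoglobulin genes and overlapping genes are uncertain. Of 48795 gene IDs, 48435 matched the GRCm38 annotation by which symbols and the 429 immunoglobulin genes were set.

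Counts of all 12 libraries were fitted with the quasi-likelihood test of edgeR 4.0.16 (R 4.3.3, filterByExpr, TMM factors, robust dispersion, group as the term), because all groups then share 1 estimate of the spread. The adjustment was Benjamini-Hochberg over all genes tested, with calls at 0.05. Where a group had 0 counts, the fold is a bound computed as if it had 3, and ratios resting on 1 count carry exact 95% intervals, which cover counting error only. For library measures, an exact permutation test was used, two-sided (scipy 1.17.1). The scripts were tested on simulated data. Alternatives were other scalings, filters and tests (DESeq2 1.42.0), the 8 libraries alone, a block on replicate number, a test against 1.5-fold and each library left out.

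Genes were named by a rule: the CXCL12 axis, Tek, Bcr, Abl1, Ezh2, Cdkn1a, Cdkn1c and Mki67; the 15 largest rises and 15 largest falls outside immunoglobulin genes with at least 5 CPM in the higher group and no overlap; up to 4 called members of smallest p in each direction for each of 39 lists; and immunoglobulin constant and V genes by level. Not all genes that met it are printed, and a few are not reported here. Kit, Slamf1, Ly6a, Cd3e, Cdh5, Lepr and Slpi were named after their values were seen. The members and lists were chosen with earlier results of these data known.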

Additional observations from a re-analysis of the deposited data

Results flagged for a closer look

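In groups of 4 libraries, a library was looked at again where its gap to the nearest other library, divided by the range of the group, exceeded Dixon's 95% critical value. Of 347 groups of values, 19 (5.48%) did so, and chance gives about 1 in 20.

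Of these, 8 hold 1 count in 1 library and 0 in the other 3, which gives a ratio of 1.0 by construction: Ackr3 in No_Cre replicate 4, Cxcl9 in No_Cre replicate 3, Lepr in No_Cre replicate 4, Cd28, Cd83 and Prss50 in Tek_Cre replicate 2, and Rpl39l and Cd3e in Tek_Cre replicate 3.

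Among the rest, No_Cre replicate 4 was low for Ighm (ratio 0.866) and high for Thy1 (ratio 0.903). No_Cre replicate 1 was low for Kit (ratio 0.843), Sparc (ratio 0.876) and Fas (ratio 0.897). No_Cre replicate 3 was high for Blnk (ratio 0.911), and No_Cre replicate 2 was low for Gbp4 (ratio 0.848). Tek_Cre replicate 4 was high for Vpreb1 (ratio 0.878) and Aurka (ratio 0.87). Tek_Cre replicate 1 was high for Hspa1a (ratio 0.858), and Tek_Cre replicate 3 was low for Ces2e (ratio 0.838). No library held more than 4 of the 19.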

How the results depend on the processing

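With library totals alone the counts became 1516 rises and 9674 falls, and against a 1.5-fold change 1045 and 790. Under the other alternatives both stayed within 1.5 times of 3896 and 3911, at 3682 and 4161 with upper-quartile factors, 3770 and 3892 with DESeq2, 2933 and 2942 with at least 5 CPM in 4 libraries, and 4365 and 5284 with no filter. Without 1 replicate there were 3594 to 3765 rises and 3671 to 3950 falls. The replicate block gave 4177 and 4191. Deviations of same-numbered libraries from their group means correlated at 0.00443, 0.0318, -0.0104 and 0.109, and 3 libraries correlated best with their own number. Whether the numbers pair samples is not given in the sources used here, and low correlations cannot decide it.

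Of 164 named genes called, which leave out Sox18 and Col1a1, 42 did not pass against 1.5-fold. With library totals alone, Cdkn1a (-0.0658), Cdkn1c (-0.0312), Kit (-0.158) and Slamf1 (-0.0898) changed sign, Lyz2, Rbl2 and Ddx21 no longer passed, and Cxcr4 (-0.44), Abl1 (-0.37) and Ezh2 (-0.45) fell. No named gene changed its call with upper-quartile or RLE factors, without immunoglobulin genes, with DESeq2, with the block or with the 8 libraries alone. Tek did not pass with at least 5 CPM in 4 libraries (adjusted p = 0.0570), and Tek and Cdkn1c were the named genes that lost their call when a replicate was left out.

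Without 1 replicate, the immunoglobulin share of counts differed by 18.1 to 18.4 percentage points, and genes detected at equal depth by -854.75 to -790.1. The exact p was then 0.0571, the smallest that 3 against 4 libraries allow. With at least 5 counts the latter difference was -38.25. The mitochondrial share of counts outside immunoglobulin genes changed sign, to -0.0144, with immunoglobulin genes kept in the total. Genes under a few CPM rest on few counts. The cause of these changes was not tested.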
